A study of Mus musculus with 2 samples.

Results

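The genes described here encode splicing factors, RNA-binding proteins and RNA helicases, and the question was which of them carried a called peak of H3K9bhb in mouse CD8+ memory T cells. H3K9bhb is histone H3 with a β-hydroxybutyryl group, made from a ketone body, on lysine 9. Members were taken by symbol from the protein-coding genes of RefSeq: names starting with Srsf, Prpf, Celf, Rbm, Ddx or Dhx plus a digit, and names starting with Hnrnp, Sf3a, Sf3b, Snrp or U2af. This gave 166 genes of 21900, in 10 symbol groups. A gene was said to have a peak when a summit, a 1-bp position of locally highest signal in a peak, lay inside it or within 5 kb of it. A peak can hold more than 1 summit.

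The series holds 1 H3K9bhb ChIP-seq library and 1 input DNA library from C57BL/6 cells. OT-I splenocytes, whose transgenic T cell receptor recognises an ovalbumin peptide, received that peptide (200 ng/ml) and IL-2 (10 ng/ml) for 3 days, were grown for 4 more days in IL-15 (10 ng/ml) to obtain memory-like cells, and then had β-hydroxybutyrate (BHB) for 3 days. The labels give 70 M reads per experiment, and the values used were the 2315 summits of 2204 peaks called in the ChIP library. There was no replicate, no untreated culture was analysed here, and the peak list gives no RNA levels. A peak is therefore a place called in treated cells, and neither a response to BHB nor expression can be read from it. None of the 18 marker genes checked had a peak (0 of 6 for CD8 T cells and 0 of 12 for B, myeloid, CD4 or regulatory T and NK cells). Over all protein-coding genes the share with a peak was 11.4%. Without RNA levels, the list does not identify the cells, whatever this count.

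Introns are removed by the spliceosome, which is built from small nuclear ribonucleoprotein particles (snRNPs). The Snrp genes encode their core and particle-specific proteins, the Sf3 and U2af genes the proteins that bind the branch site and the end of the intron, and the Prpf genes factors that assemble and remodel the machine. SR proteins (Srsf) and heterogeneous nuclear ribonucleoproteins (Hnrnp), with Celf and Rbm proteins, bind the transcript and alter which splice sites are used. DEAD-box (Ddx) and DEAH-box (Dhx) helicases unwind RNA during splicing, ribosome assembly and other steps. In T cells, activation is known to change the splicing of many transcripts.

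Peaks were called at 30 of the 166 members (18.1%, 95% exact Clopper-Pearson interval 12.5 to 24.8), where 11.4% of all protein-coding genes had one (2489 of 21900). Among genes with CpG-rich promoters, a class defined below, the shares were 22.8% in members (interval 15.9 to 31.1) and 20.1% in all genes. The members' peaks were 30 separate peaks on 14 chromosomes, and no member had more than 1 peak or shared one with another member. The members with peaks came from 9 of the 10 symbol groups, and in 25 of the 29 that have an annotated transcription start the summit lay within 1 kb of such a start. The highest score, a −log10 p or q value given by the authors, was at Rbm6 (19.5), followed by Dhx30 (11.2), Rbm47 (10.5) and Hnrnpa3 (10.5). The intervals here cover counting error only and treat genes as independent.

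The promoters of 5 members that led their symbol groups by score are shown first, because most summits lay near starts. Sequences are from RefSeq (GRCm38.p6, the assembly that mm10 denotes), run 5′ to 3′ on the gene's strand and cover 250 bases before to 50 after the start. Capitals mark matches, on either strand, to 7 short motifs that were searched for. The letters CCGGAAG stood for ETS factors, the core letters GCATGCG for NRF1 and the core letters AAGATGG for YY1. The letters TGACGTC stood for the cyclic AMP response element (CRE), while GGGCGG was used for Sp factors, with CCAAT for NF-Y, and TATAAA was used for the TATA box. Rbm6 is at chr9:107872770-107873069 (minus strand), Dhx30 at chr9:110117567-110117866 (minus), Hnrnpa3 at chr2:75659009-75659308 (plus), Ddx55 at chr5:124552614-124552913 (plus) and Prpf39 at chr12:65036084-65036383 (plus).
Rbm6: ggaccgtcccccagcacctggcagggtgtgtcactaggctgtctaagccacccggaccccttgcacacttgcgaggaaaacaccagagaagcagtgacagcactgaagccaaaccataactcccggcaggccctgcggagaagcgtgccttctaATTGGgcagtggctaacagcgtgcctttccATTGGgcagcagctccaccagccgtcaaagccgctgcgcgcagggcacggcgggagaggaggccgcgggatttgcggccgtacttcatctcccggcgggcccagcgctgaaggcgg
Dhx30: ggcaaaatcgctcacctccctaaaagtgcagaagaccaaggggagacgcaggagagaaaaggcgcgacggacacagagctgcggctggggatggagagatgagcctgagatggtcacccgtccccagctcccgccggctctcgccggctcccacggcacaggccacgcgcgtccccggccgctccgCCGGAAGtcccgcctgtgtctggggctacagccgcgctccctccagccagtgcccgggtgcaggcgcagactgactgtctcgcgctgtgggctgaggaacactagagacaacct
Hnrnpa3: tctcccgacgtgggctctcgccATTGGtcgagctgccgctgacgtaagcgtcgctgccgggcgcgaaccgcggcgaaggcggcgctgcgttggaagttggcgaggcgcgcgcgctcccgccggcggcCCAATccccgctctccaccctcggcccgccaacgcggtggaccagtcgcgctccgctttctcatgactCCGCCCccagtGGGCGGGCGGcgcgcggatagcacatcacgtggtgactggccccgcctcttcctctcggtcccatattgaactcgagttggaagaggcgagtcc
Ddx55: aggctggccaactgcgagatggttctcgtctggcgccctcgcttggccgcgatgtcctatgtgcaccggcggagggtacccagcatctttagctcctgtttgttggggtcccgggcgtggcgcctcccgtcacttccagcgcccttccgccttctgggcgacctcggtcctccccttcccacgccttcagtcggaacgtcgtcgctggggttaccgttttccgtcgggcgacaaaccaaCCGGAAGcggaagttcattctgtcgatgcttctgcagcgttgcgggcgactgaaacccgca
Prpf39: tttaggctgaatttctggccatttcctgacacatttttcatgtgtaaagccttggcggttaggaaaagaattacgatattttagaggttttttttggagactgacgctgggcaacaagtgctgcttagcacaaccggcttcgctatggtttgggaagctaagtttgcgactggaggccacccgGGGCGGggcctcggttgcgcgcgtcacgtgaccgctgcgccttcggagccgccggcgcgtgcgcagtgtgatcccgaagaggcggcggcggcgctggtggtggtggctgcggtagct
These 5 windows held 64.3% GC (Rbm6), 67.0% (Dhx30), 70.3% (Hnrnpa3), 63.7% (Ddx55) and 57.7% (Prpf39). Their ratios of observed to expected CpG were 0.677, 0.773, 1.19, 1.06 and 1.12 in the same order. Matches differed between them: 2 NF-Y matches in Rbm6, 1 ETS match each in Dhx30 and Ddx55, 1 Sp match in Prpf39, and 3 Sp and 2 NF-Y matches in Hnrnpa3, where 2 Sp matches overlap by 2 bases. Of these genes, only Hnrnpa3 had its summit inside the printed window, 144 bp before the start. In the other 4 it lay beyond the window's end, 128 to 421 bp into the gene. The choice was limited to the 6 groups with the highest leading scores; Sf3a1, the other leader among these, is not shown because its summit was 26518 bp from its start.

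The summit itself lay inside the 300-base window in 4 members, Hnrnpa3 and 3 more that are shown because their windows hold the summit, a choice made after the values were seen. Prpf40b is at chr15:99294991-99295290 (plus strand), with the summit 219 bp before the start. Ddx31 is at chr2:28840156-28840455 (plus), with the summit 101 bp before the start, and Hnrnph3 at chr10:63023800-63024099 (minus), with the summit 13 bp after it.
Prpf40b: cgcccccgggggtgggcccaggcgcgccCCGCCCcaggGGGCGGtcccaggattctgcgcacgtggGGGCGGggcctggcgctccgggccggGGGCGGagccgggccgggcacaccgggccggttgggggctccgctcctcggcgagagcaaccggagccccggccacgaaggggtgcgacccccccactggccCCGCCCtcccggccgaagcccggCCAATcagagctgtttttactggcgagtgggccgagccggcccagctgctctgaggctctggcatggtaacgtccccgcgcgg
Ddx31: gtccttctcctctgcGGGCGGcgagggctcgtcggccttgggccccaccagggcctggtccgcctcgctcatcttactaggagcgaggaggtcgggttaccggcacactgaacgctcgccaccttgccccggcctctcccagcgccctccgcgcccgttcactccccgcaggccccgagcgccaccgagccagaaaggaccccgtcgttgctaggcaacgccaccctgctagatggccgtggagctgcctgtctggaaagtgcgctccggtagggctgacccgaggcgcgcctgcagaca
Hnrnph3: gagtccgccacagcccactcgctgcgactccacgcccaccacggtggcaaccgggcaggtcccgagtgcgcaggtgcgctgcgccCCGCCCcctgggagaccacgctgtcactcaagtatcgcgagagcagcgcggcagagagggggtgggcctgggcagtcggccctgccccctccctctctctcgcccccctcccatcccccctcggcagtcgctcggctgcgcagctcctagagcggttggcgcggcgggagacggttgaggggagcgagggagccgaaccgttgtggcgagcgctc
These windows were also GC-rich, with 78.3% GC in Prpf40b, 70.0% in Ddx31 and 73.0% in Hnrnph3. Prpf40b held 5 Sp matches and 1 NF-Y match, and Ddx31 and Hnrnph3 held 1 Sp match each.

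The share of genes with a peak by symbol group ran from 2 of 6 Celf genes (33.3%) to 0 of 3 U2af genes. After Celf came Prpf (3 of 13, 23.1%), Ddx (8 of 37, 21.6%), Rbm (8 of 38, 21.1%) and Hnrnp (4 of 21, 19.0%). Lower shares were found for Dhx (2 of 16, 12.5%), Sf3 (1 of 9, 11.1%), Srsf (1 of 11, 9.09%) and Snrp (1 of 12, 8.33%). Every group's exact interval included the 11.4% of all genes: the narrowest were those of Rbm (9.55 to 37.3) and Ddx (9.83 to 38.2), and that of Srsf ran from 0.230 to 41.3. For U2af, the exact upper limit on 0 of 3 is 70.8%, and 3 counts of the total give no limit below 100%. No test between groups was made, and with groups this small the order of their shares is a description only.

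**Figure D1:**
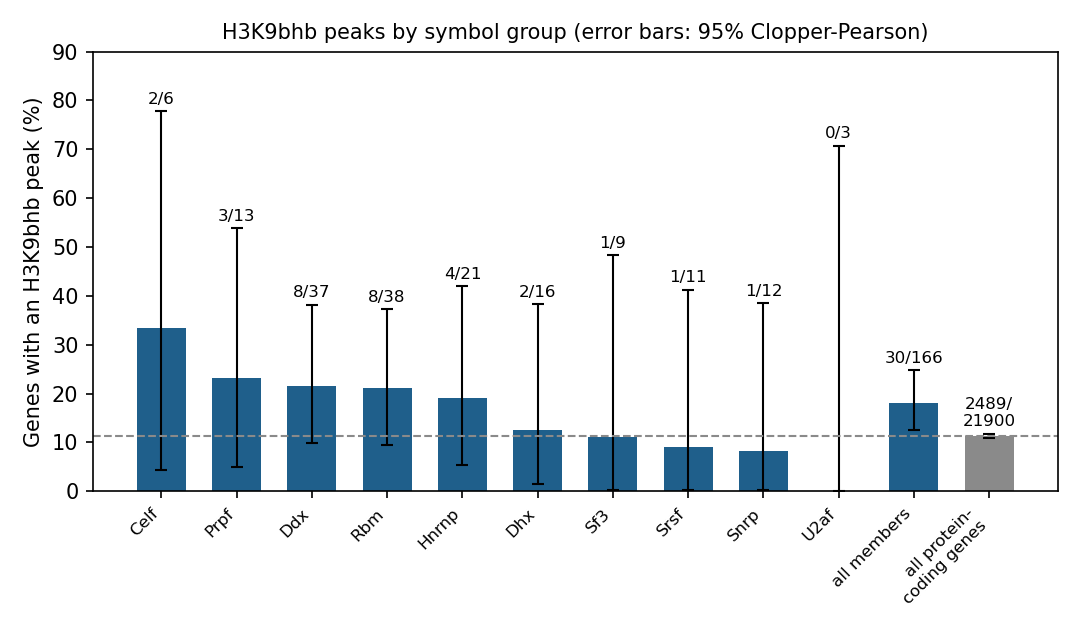
Share of genes with an H3K9bhb peak (y axis, %) in each symbol group, in all 166 members and in all protein-coding genes, with the number of genes with a peak over the number in the group above each bar. Error bars are 95% exact intervals, the dashed line is the 11.4% of all genes, and every group's interval crosses it.

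Among the SR proteins, which bind exonic enhancers, Srsf7 (chromosome 17, 80200080 to 80207369) was the 1 gene with a peak. Its summit at 80206926 scored 5.89 and lay 379 bp downstream of the start; it was also 578 bp outside Gemin6, a gene of the SMN complex that assembles snRNPs. Srsf1, Srsf2, Srsf3, Srsf4, Srsf5, Srsf6, Srsf9, Srsf10, Srsf11 and Srsf12 had none. The closest summit to any of them was 14.9 kb away (Srsf9) and the median distance was 191 kb.

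Peaks at 4 of the 21 Hnrnp genes ranged widely in score. Hnrnpa3, of the A/B family, scored 10.5 with its summit at 75659115 on chromosome 2, 10 bp inside the gene. Hnrnpr scored 6.01, with a summit at 136311126 on chromosome 4, 184 bp downstream of the start. Hnrnph3, of the family that binds G-rich stretches, and Hnrnpk, which binds C-rich stretches, both scored 2.77, a value shared by 32 peaks of the list. The Hnrnpk summit, at 58402909 on chromosome 13, lay 792 bp upstream of the gene's annotated start and 312 bp downstream of a start of Rmi1. The 17 without a peak included Hnrnpa1, Hnrnpa2b1, Hnrnpc, Hnrnpu, Hnrnpl and Hnrnpll, the last of which is known for regulating CD45 splicing in T cells. They also included Hnrnpa1l2-ps2, which has the symbol of a pseudogene but is listed as protein-coding and was kept. The closest of the 17 to a summit was Hnrnpm, at 33.2 kb.

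At the genes for the core particles the called peaks were shared with neighbours. Sf3a1, a U2 snRNP subunit, had its summit 4331 bp outside the gene at 4186872 on chromosome 11 (score 9.54), past its transcript end and 39 bp from an end and start of Tbc1d10a. Snrpd3, an Sm protein of the snRNP core, had its summit 848 bp outside the gene at 75517194 on chromosome 10 (4.54), and a start of Gucd1 was 187 bp from it. No summit lay inside any Sf3, Snrp or U2af gene. Joined after the counts were seen, these groups had 2 of 24 genes with a peak (8.33%, interval 1.03 to 27.0, which includes the 11.4% of all genes). They had 0 of 24 when a summit counted only for the gene with the nearest end, where 9.26% of all genes had one. By that count the exact upper limits were 33.6% for Sf3, 26.5% for Snrp and 70.8% for U2af, each above 9.26%, so no depletion can be read from it. The genes without a peak included Sf3b1, the branch-site subunit of SF3B, Snrpb, Snrpd1, Snrpd2, Snrpe, Snrpf and Snrpg of the Sm ring, Snrpa and Snrpc of the U1 particle, and U2af1 and U2af2, with distances to the closest summit from 13.9 kb (Sf3b6) to 1324 kb (Snrpn).

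The Prpf genes with peaks were Prpf39 and Prpf40b, related to U1 snRNP proteins of yeast, and Prpf4b, a kinase of the splicing machinery. Prpf39 (summit 65036555, chromosome 12) scored 6.63 and lay 221 bp downstream of its start, and Prpf40b (99295022, chromosome 15) scored 6.46. Prpf4b (34875912, chromosome 13) scored 4.22 and lay 383 bp downstream. All 3 were nearest to the gene's own end. Prpf8, which forms the centre of the spliceosome, had no peak, and neither did Prpf3, Prpf4, Prpf6, Prpf18, Prpf19, Prpf31, Prpf38a or Prpf38b; of these, Prpf6 was the closest to a summit, at 24.8 kb.

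Both Celf genes with a peak, Celf1 and Celf5, had the summit inside the gene. Celf1, which binds GU-rich elements and is widely expressed, had it at 90940591 on chromosome 2, 194 bp downstream of the start, with a score of 3.50. Celf5, best known from brain, had it at 81470801 on chromosome 10 with a score of 6.08, 11574 bp from the nearer end of the gene and 2062 bp past the nearest of its 5 annotated starts. Celf2, Celf3, Celf4 and Celf6 had no peak, and the closest summit was 47.5 kb from Celf6.

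The Rbm genes held the highest score of the whole set and ranged widely. Rbm6 (chromosome 9, 107773559 to 107873358), an RNA-binding regulator of alternative splicing, had its summit at 107872454, 365 bp downstream of the start; 0.953% of all peaks scored as high as its 19.5. Rbm47 (66150860, chromosome 5), known as a partner of the cytidine deaminase APOBEC1, scored 10.5 and lay 118 bp downstream of a start. Rbm17 (11603011, chromosome 2), a factor associated with the U2 snRNP, and Rbm38 (173022044, chromosome 2), a p53 target that binds mRNA, both scored 7.95, at 188 and 142 bp downstream. Rbm34, Rbm43, Rbm7 and Rbm14 scored 7.80, 5.11, 5.11 and 2.02. Of these, Rbm34 had its summit 1418 bp outside the gene and 167 bp from a start of Tomm20, while Rbm7, of the nuclear exosome targeting complex, shared its summit, 328 bp upstream of its start, with Gm5617. Rbm14, a paraspeckle protein, shared its summit with Gm21992. The 30 Rbm genes without a peak included Rbm5, the relative and neighbour of Rbm6, 101 kb from a summit, as well as Rbm8a of the exon junction complex, Rbm15, Rbm25 and Rbm39.

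Of the 8 DEAD-box genes with peaks, Ddx55, Ddx21, Ddx11 and Ddx42 had the highest scores. Ddx55 (124552992, chromosome 5), a helicase of ribosome assembly, scored 8.42 and lay 128 bp downstream of its start. Ddx42 (106217067, chromosome 11), which is associated with SF3B, scored 5.41 at 141 bp downstream. Ddx11 (66123640, chromosome 17) scored 6.92, 127 bp inside an end of the gene; despite its name it is known as a DNA helicase of sister chromatid cohesion, and it is counted here because the rule goes by symbol. Ddx20, Gemin3 of the SMN complex, and Ddx46, the counterpart of yeast Prp5 that acts on the U2 snRNP, both scored 2.51, a value shared by 106 peaks.

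Ddx21 and Ddx50, nucleolar paralogues that lie 13493 bp apart on chromosome 10, each had a peak, at different kinds of position. Ddx50 had 2 summits in 1 peak. The summit taken by score, at 62651028 (3.50), lay 7736 bp inside the gene but 190 bp downstream of one of its 2 annotated starts. The Ddx21 summit, at 62578264 (7.50), lay 1983 bp outside the gene past its transcript end, 24034 bp from its start and 193 bp downstream of a start of Kifbp. Ddx31, also nucleolar, scored 3.50 with its summit 55 bp into the neighbouring Gtf3c4. The 29 Ddx genes without a peak included Ddx5 and Ddx17, which act in splicing and transcription, Ddx39b and Ddx23 of the spliceosome, Ddx6 of mRNA decay, Ddx3x, and Ddx58, which encodes the RNA sensor RIG-I.

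Of the DEAH-box genes, Dhx30 and Dhx32 had peaks. Dhx30 (110117195, chromosome 9), known for mitochondrial ribosome assembly, scored 11.2 and lay 421 bp downstream of its start; 4.67% of all peaks scored as high. Dhx32 (133776676, chromosome 7) scored 3.33, 127 bp downstream of an internal annotated start and 160 bp from an end of Fank1. The spliceosomal helicases Dhx8, Dhx15, Dhx16 and Dhx38 had no peak, nor did Dhx9, Dhx36, Dhx29, which acts in translation initiation, or Dhx58, the RNA sensor LGP2. The closest summit to any of the 14 was 24.3 kb away, at Dhx29.

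**Figure D2:**
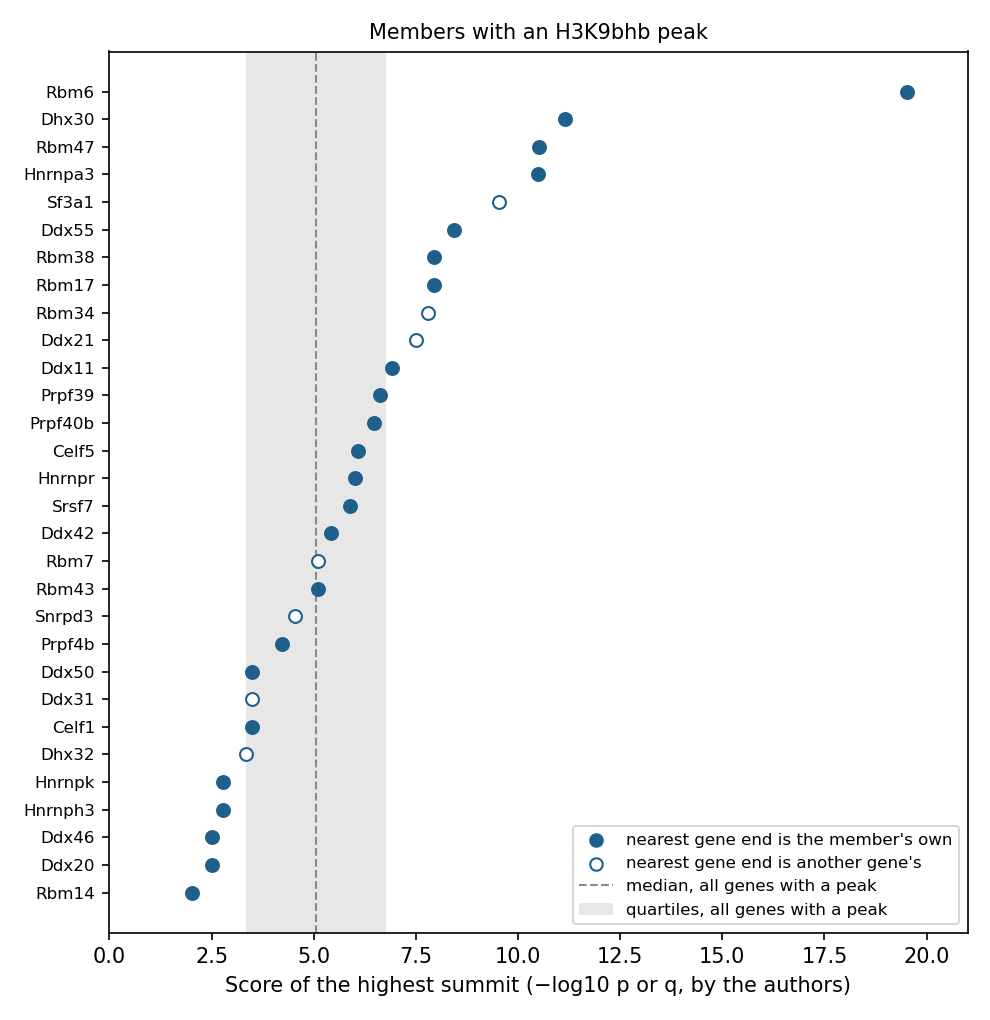
Score of the highest summit (x axis, −log10 p or q as given by the authors) for each of the 30 members with a peak (y axis), filled where the nearest protein-coding gene end is the member's own and open where it is another gene's. The dashed line and grey band are the median (5.04) and quartiles (3.33 and 6.78) of all protein-coding genes with a peak; Rbm6 at 19.5 stands to the right of the other members, which lie between 2.02 and 11.2.

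The members' scores ran from 2.02 to 19.5, where those of all protein-coding genes with a peak reached 165.5. The median of the 30 best scores was 5.95 (95% interval of the median 4.22 to 7.50), with quartiles of 3.50 and 7.92, beside a median of 5.04 over the 2489 protein-coding genes with a peak, and 19 of the 30 members were above that value. The interval includes the value of all genes, so no difference in score was detectable. Rbm genes had a median of 7.88 (n = 8) and Ddx genes 4.46 (n = 8), with ranges that overlap. Many scores were tied: Celf1, Ddx31 and Ddx50 had the same value as 99 peaks of the list in all. A score depends on local read depth and does not measure how much of the mark a gene carries.

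Most member summits near an annotated start lay on its transcribed side. An annotated start was at hand for 29 of the 30 members with a peak (all but Ddx11). In 19 of the 29 (65.5%, interval 45.7 to 82.1) the summit nearest to a start lay from 0 to 500 bp downstream, in 6 (20.7%) it lay up to 1 kb upstream, and in 4 (Celf5, Ddx21, Rbm34 and Sf3a1) it was farther than 1 kb. Over all 2032 protein-coding genes with a peak and an annotated start, 50.9% lay 0 to 500 bp downstream, 24.1% up to 1 kb upstream and 20.96% beyond 1 kb. For those within 1 kb, the median position was 142 bp downstream in members (n = 25, quartiles 13 and 242) and 101 bp downstream over all genes (n = 1606, quartiles -33 and 223). The members' positions thus sit within the spread of all genes.

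**Figure D3:**
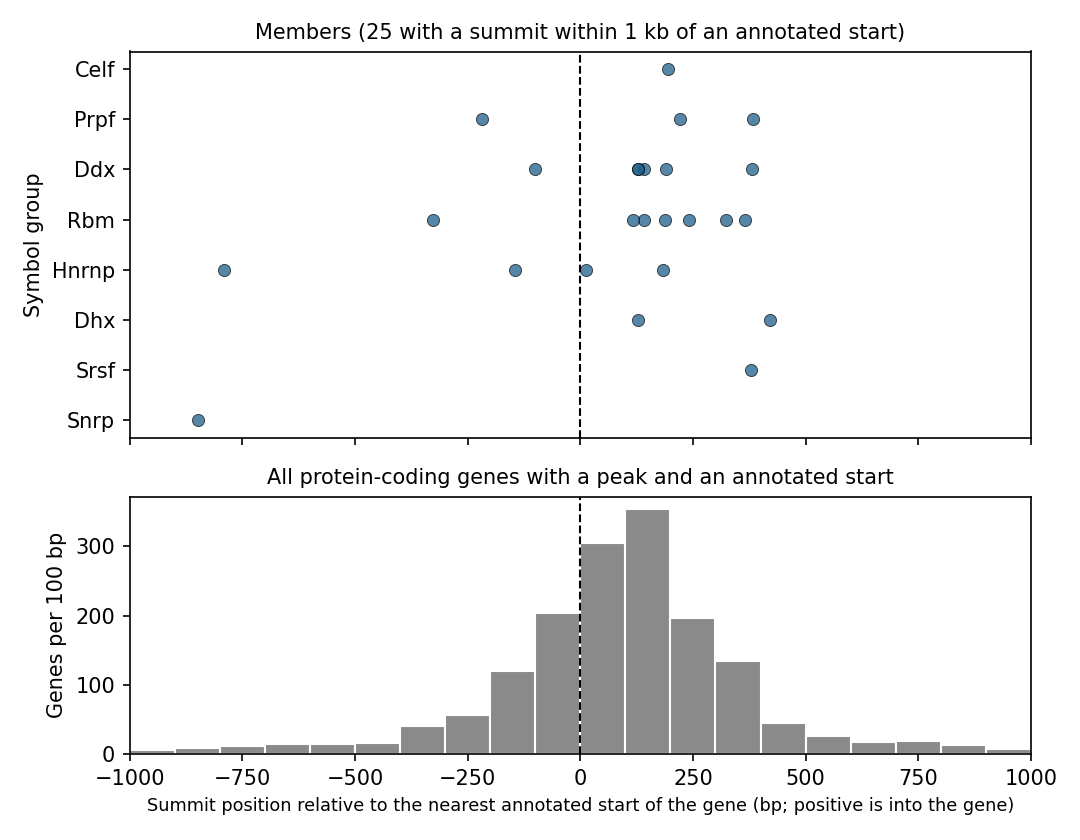
Position of the summit relative to the nearest annotated start of the gene (x axis, bp, positive into the gene), as 1 point per member by symbol group (upper panel, n = 25) and as a histogram of all protein-coding genes with a peak in bins of 100 bp (lower panel). Most members lie between 118 and 421 bp downstream of the start, and the tallest bin of all genes is 100 to 200 bp downstream, with 354 genes.

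The summits near the members' ends lay mostly at gene starts and not at transcript ends. Of the 26 members with a summit within 2 kb of an end, 25 have a known strand, and in 23 of these (92.0%) the end was the one with the start; the exceptions were the Ddx21 and Rbm34 summits described above. Over all genes the share was 92.9% (1570 of 1690). Counting only summits within 1 kb of an annotated start, 25 of the 142 members with one had a peak (17.6%, interval 11.7 to 24.9), where 9.18% of the 17492 genes with an annotated start did.

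Neighbouring genes shared many of these positions. In 16 of the 30 members with a peak, another protein-coding gene also lay within 5 kb of the summit, and in 7 (Ddx21, Ddx31, Dhx32, Rbm34, Rbm7, Sf3a1 and Snrpd3) the nearest gene end belonged to that other gene. The gene's own end was nearest in 76.7% of the 30 members, where this held for 81.5% of all protein-coding genes with a peak. The share with another gene within 5 kb was not computed over all genes. When a summit counted only for the gene with the nearest end, 23 members kept a peak (13.9%, interval 8.99 to 20.1), where 9.26% of all genes did, a value within the members' interval. Inside the gene alone the counts were also 23 members (13.9%), where 8.71% of all genes had a peak, and within 2 kb of an end 26 members (15.7%), where 9.40% did. In the top-scoring 50% of peaks they were 19 members (11.4%), where 5.77% of all genes had one. At a pair of divergent genes such as Ddx31 and Gtf3c4 the peak cannot be assigned to either. There the summit was 101 bp from the Ddx31 start and 55 bp from a start of Gtf3c4.

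Of the 30 members with a peak, 7 had the summit outside the gene and were counted through the 5 kb flank. A summit lay inside the gene in 76.7% of the 30 members and in 76.6% of all protein-coding genes with a peak. The farthest out of the 7 members were Sf3a1, Ddx21 and Rbm34, with summits 4331, 1983 and 1418 bp outside the gene. Beyond the 5 kb limit the closest were Rbm28 (6300 bp), Ddx49 (9530 bp) and Ddx59 (10335 bp). A 10 kb flank gave 32 members with a peak (19.3%), where 13.0% of all genes had one. For 81 of the 136 members without a peak the closest summit was over 100 kb away. The same count was not made over all genes. All 7 members on the X and Y chromosomes (Ddx3x, Hnrnph2, Rbm3, Rbm10 and Rbm41 on X, Ddx3y and Rbm31y on Y) were among the 136, and 18 of 966 X genes had a peak by the same count.

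Gene length and promoter type were set beside the share of genes with a peak. The median length was 17.9 kb in members and 17.1 kb in all genes, and 22.8 kb in the members with a peak against 17.6 kb in those without. Within length classes, members had a peak in 4 of 43 genes under 10 kb (9.30%), 15 of 73 from 10 to 30 kb (20.5%), 10 of 41 from 30 to 100 kb (24.4%) and 1 of 9 over 100 kb (11.1%). All protein-coding genes had 5.68%, 11.8%, 17.2% and 16.6% in these classes.

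Promoter type showed a wider gap. A promoter was called CpG-rich when an annotated start had at least 50% GC and a ratio of observed to expected CpG of at least 0.6 in its 300-base window, a class added after the first counts were seen. CpG-rich promoters were found in 127 of the 142 members with an annotated start (89.4%) and in 48.3% of all such genes. All 29 members with both a peak and an annotated start were in this class, 29 of 127 (22.8%, interval 15.9 to 31.1), and 0 of the 15 others had a peak, for which the exact upper limit is 21.8% (3 of 15 by 3 counts of the total). Among all genes with CpG-rich promoters 20.1% had a peak (1697 of 8452), and among the other genes 3.71% did. Set against genes with CpG-rich promoters, the members' share was thus near the background. In CpG-rich genes of 10 to 100 kb the shares were 26.4% in members (24 of 91, interval 17.7 to 36.7) and 22.1% in all genes.

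**Figure D4:**
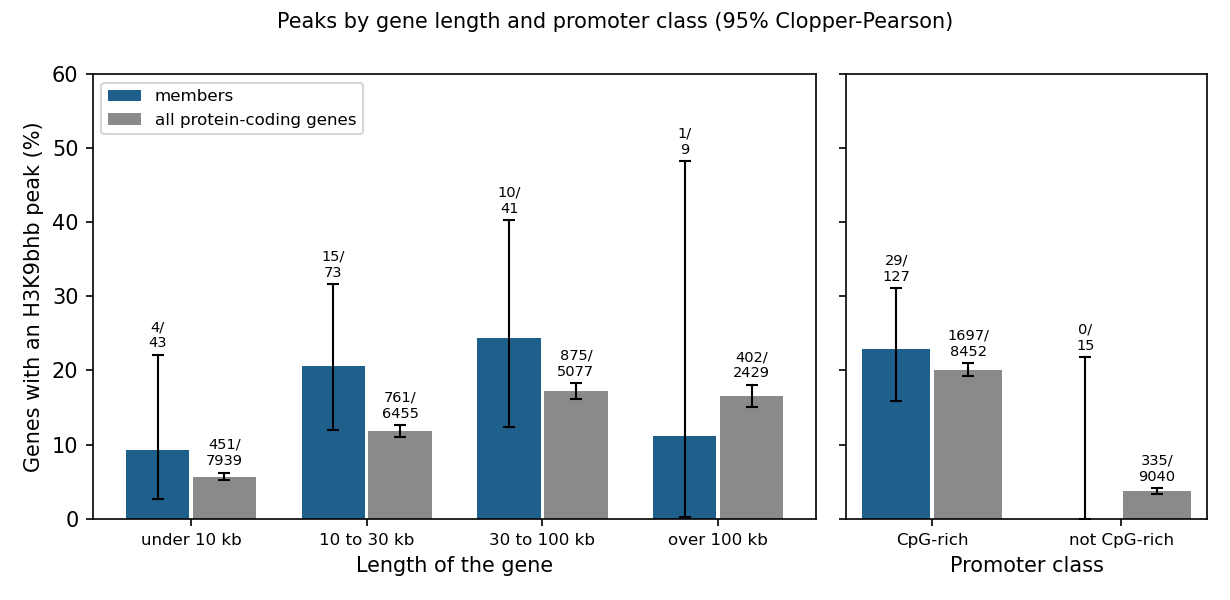
Share of genes with an H3K9bhb peak (y axis, %) by gene length (left) and by promoter class (right), in members (blue) and all protein-coding genes (grey), with 95% exact intervals and the counts above the bars. With CpG-rich promoters the bars are 22.8% and 20.1%, and without them 0 of 15 members and 3.71% of all genes had a peak.

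Motif matches in the members' promoters, with or without a peak, are given as shares of the 300-base windows. The ETS letters were in 18.6% of the 43 windows of members with a peak, 28.5% of the 151 windows of members without one and 11.6% of all 21263 windows of protein-coding genes. The CRE letters were in 2.33%, 13.9% and 3.84% of these windows, the NF-Y letters in 32.6%, 47.7% and 38.2%, and the NRF1 letters in 2.33%, 10.6% and 4.44%. In members with a peak, the CRE and NRF1 letters were each in 1 of 43 windows (interval 0.0589 to 12.3). That interval overlapped those of members without a peak (8.82 to 20.5 for CRE and 6.18 to 16.6 for NRF1). The Sp letters were in 58.1%, 56.3% and 46.2%, the YY1 letters in 6.98%, 5.96% and 6.24%, and the TATA letters in 6.98%, 13.2% and 12.6%. Median GC content was 63.7% (95% interval of the median 58.3 to 65.3) in members with a peak and 59.0% (57.0 to 60.7) in members without, and 56.3% over all genes. The CpG ratio had medians of 0.783 in members with a peak (0.685 to 0.837) and 0.880 in members without (0.840 to 0.927), and 0.567 over all genes. Over all protein-coding genes with a peak the medians were 64.3% GC and a CpG ratio of 0.799. Both were within the intervals of members with a peak. Of the windows of all genes with a peak, 13.7% held the ETS letters, 4.66% CRE, 34.8% NF-Y and 6.03% NRF1. The Sp letters were in 68.0% of those windows, the YY1 letters in 6.07% and the TATA letters in 6.48%. The intervals of GC content overlapped between members with and without a peak. Those of the CpG ratio did not, but they did when the members with a peak were limited to summits within 2 kb of an end (median 0.816, 0.733 to 0.952). Several windows belong to the same gene, and the intervals treat them as independent.

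Other genes of RNA processing, in 6 lists written with earlier results of these data known, had peaks at 26 of 150 (17.3%, interval 11.6 to 24.4), beside 11.4% of all genes. SR-related proteins and SR protein kinases had 10 of 26 (38.5%, interval 20.2 to 59.4), the exon junction complex and mRNA export 4 of 20, Lsm, SMN and snRNP assembly genes 4 of 23, sequence-specific splicing regulators 4 of 39, and the lists of catalytic and of U2 and tri-snRNP associated proteins 2 of 21 each. The SR-related genes were Clk3 (6.83) and Clk2 (3.33), kinases of SR proteins, Srpk1 (3.51), another such kinase, Srek1 (6.63), Srrm2 (5.26), a scaffold of nuclear speckles, Tra2b (5.12), which binds exonic enhancers, Scaf11 (4.70), Scaf1 (4.52), Scaf4 (3.33) and Luc7l2 (2.07), a U1-associated factor. Their summits lay within 500 bp of an annotated start in 8 of the 10, the exceptions being Scaf1 and Luc7l2. The Scaf1 summit was 1661 bp outside the gene, and the nearest gene end was that of Rras. Among the others were Thoc3 (9.12) of mRNA export, Gemin5 (7.996) of the SMN complex and Eif4a3 (3.51), the helicase of the exon junction complex. Gemin6 was counted here through the Srsf7 summit, so that peak enters both the members' count and the count of these lists. With CpG-rich promoters, 19 of 100 of the genes in the 6 lists had a peak (19.0%, interval 11.8 to 28.1), near the 20.1% of all genes with such promoters. That share was not split by list, so it does not describe the SR-related genes alone.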

How the data were processed

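Each deposited value is a −log10 of a p or q value, given by the authors for a 1-bp summit in 1 ChIP library; the sources do not state which of the 2 it is, and the text calls it a score. The submitters' processing notes list mm10 and the tools MACS2 2.1.2, Bowtie2 2.3.5, Trimmomatic 0.39 and FastQC 0.11.8. Caller settings and use of the input were not stated, and the list holds no read depth per peak.

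Genes and their ends came from a RefSeq table of GRCm38.p6, and strands and starts from a RefSeq promoter table that matched 142 of the 166 members and 17492 of 21900 genes. All summits of the file were counted, scores were used only within the list, and no chance test was made. Every member with a peak is named, with positions for up to 4 per symbol group by score; other positions were chosen after their values were seen. The members and lists were chosen with earlier results of these data known. Alternatives covered flanks, windows at ends and starts, score limits, nearest gene, sex chromosomes and promoter class. Some genes in the counts are not named. The matching was tested on simulated summits. Software was Python 3.11.15 with matplotlib 3.10.9, scipy 1.17.1, pandas 2.3.3 and numpy 2.4.6.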

Additional observations from a re-analysis of the deposited data

How the results depend on the processing

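The share of members with a peak was higher than that of all protein-coding genes under most alternatives computed for both. It was lower in genes over 100 kb (1 of 9, beside 16.6%) and without CpG-rich promoters (0 of 15, beside 3.71%). The members' interval included the all-gene value by nearest end (8.99 to 20.1, beside 9.26%) and with CpG-rich promoters (15.9 to 31.1, beside 20.1%). It also did so in CpG-rich genes of 10 to 100 kb (17.7 to 36.7, beside 22.1%). The same held under 10 kb (2.59 to 22.1, beside 5.68%) and from 30 to 100 kb (12.4 to 40.3, beside 17.2%). From 10 to 30 kb the interval lay above the all-gene value (20.5%, beside 11.8%). Members with a peak were 11.4% (19 of 166) in the top-scoring 50% of peaks, where all genes had 5.77%, because fewer peaks were used. Other member values, apart from those by length or without CpG-rich promoters, ran from 13.9% (inside the gene only, or nearest end only) to 22.8% (CpG-rich promoters). All genes had 8.71% inside the gene only, 13.0% with 10 kb flanks, 9.40% within 2 kb of an end, 9.26% by nearest end, 9.18% within 1 kb of an annotated start and 20.1% with CpG-rich promoters; the last 2 settings were chosen after seeing the data. Sf3 genes had 0% inside the gene only, within 2 kb of an end and by nearest end, and Snrp genes had 0% inside the gene only, in the top 50% and by nearest end. The other RNA-processing genes had 11.3% inside the gene only and 8.0% in the top 50%. In the remaining 99 of 115 values the change was within the 95% interval of the reported value, which is wide for small groups. No paired analysis was possible because the ChIP group holds 1 library and no test between samples was made.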
